A study of Homo sapiens with 7 samples.

Results

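The mRNAs of the apoptosome and of 4 further caspases were followed in RH30 cells with and without BV6. The 7 genes were APAF1, CASP9 and CYCS, which supply the apoptosome, and CASP6, CASP2, CASP1 and CASP4. They were chosen by name among the 57189 genes of the count table, and all 7 passed the filter on low counts that left 23124 genes for testing. RH30 is an established human cell line of alveolar rhabdomyosarcoma (RMS), a tumor with features of skeletal muscle, and its genotype is labelled wt in both groups. BV6 is a Smac mimetic, a small molecule that copies the IAP-binding end of the mitochondrial protein Smac. The data hold 4 samples of untreated cells and 3 of cells given 5 µM BV6 in full RPMI-based medium for 24 h. BV6 replicates 2, 3 and 4 each carry the same BC number in their title as the untreated sample of that number, whereas untreated replicate 1 has no BV6 partner. All samples come from 1 cell line, and the methods describe RH30 cells that express GFP and luciferase, so the groups hold no variation between tumors. The study calls the sequenced samples biological replicates, the labels do not say whether those of a group were separate cultures, and p-values then measure the spread between these samples, which may be technical.

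Apoptosis through mitochondria starts when cytochrome c leaves the space between the mitochondrial membranes. In the cytosol it binds APAF1, which assembles into a wheel-shaped complex, the apoptosome, and recruits procaspase-9. Active caspase-9 then cleaves some of the executioner caspases. XIAP can block caspase-9 and some of the executioners, and Smac relieves that block. Caspases are made as inactive precursors and are switched on by assembly or cleavage of the protein, a step that mRNA counts do not record. Caspase-1 and caspase-4 belong to the inflammatory branch, in which they cleave gasdermin D. The precursors of interleukin-1β and interleukin-18 are substrates of caspase-1.

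The promoters of the genes for cytochrome c, APAF1, caspase-9 and caspase-4 are shown because they differ in base composition and in the short motifs they hold, next to the levels given below. RefSeq listed a promoter for 6 of the 7 genes (GRCh38.p14, 35116 promoters in all), and CASP1 had no entry. Searches covered the 250 bases before each start on both strands, and only the longest stretch of each window that lies outside annotated exons is printed, 5′ to 3′ on the gene's strand, with motif letters in capitals.
CYCS (chr7:25125261-25125510, minus strand): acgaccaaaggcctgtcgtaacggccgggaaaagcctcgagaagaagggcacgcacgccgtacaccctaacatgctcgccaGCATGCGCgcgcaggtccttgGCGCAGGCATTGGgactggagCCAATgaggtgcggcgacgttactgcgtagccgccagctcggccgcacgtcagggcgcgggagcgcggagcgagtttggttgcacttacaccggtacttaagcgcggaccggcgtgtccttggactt
APAF1 (chr12:98645114-98645289, plus strand): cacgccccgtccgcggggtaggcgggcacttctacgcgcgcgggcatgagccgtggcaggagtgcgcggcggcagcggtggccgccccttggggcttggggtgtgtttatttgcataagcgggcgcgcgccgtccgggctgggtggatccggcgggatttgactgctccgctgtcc
CASP9 (chr1:15524890-15525040, minus strand, the more upstream of 2 listed starts): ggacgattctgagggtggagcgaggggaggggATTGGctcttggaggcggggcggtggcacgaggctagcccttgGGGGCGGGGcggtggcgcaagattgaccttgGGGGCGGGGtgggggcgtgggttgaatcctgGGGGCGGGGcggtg
CASP4 (chr11:104968729-104968824, minus strand): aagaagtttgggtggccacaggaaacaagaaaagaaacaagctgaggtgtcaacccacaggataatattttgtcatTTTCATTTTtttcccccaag
The capitals in CYCS mark 2 matches to the core of the site of NRF1 (GCGCANGC), a regulator of nuclear genes of mitochondria, and 2 CCAAT boxes (CCAAT), 1 of which directly follows the second core. The NRF1 cores begin 169 and 148 bases before the start. The first core and the first CCAAT box are on the opposite strand. Of all promoters, 10.4% held the NRF1 core and 32.0% a CCAAT box. The capitals in CASP9 mark a CCAAT box (on the opposite strand) 218 bases before the start and 3 GC boxes (GGGGCGGGG), a motif present in 15.1% of promoters, and the window of 250 bases held a further GC box 20 bases before the start. In CASP4 they mark the core of an interferon response element (AAANNGAAA, here on the opposite strand) 174 bases before the start, which 9.20% of promoters held. The rest of the CASP4 window held a second such core 11 bases and CCAAT boxes 134 and 126 bases before the start. No letters of the searched motifs stood in the APAF1 stretch. Beyond it the APAF1 window reached into an exon of the neighboring gene IKBIP, where a CCAAT box lay 211 bases before the start. Of the windows not shown, that of the more upstream CASP2 start held 4 NRF1 cores, 2 CCAAT boxes and 1 GC box. The CASP6 window held 1 GC box, and that of the other CASP9 start held 3. G and C made up 73.6% of the APAF1 window, 71.6% of that of CASP9, 64.4% of that of CYCS and 38.0% of that of CASP4. Only 9.5% of all promoters had a lower share than CASP4. The motifs E2F (TTTCGCGC, TTTGGCGC or TTTCCCGC), the gamma-activated site (TTCNNNGAA) and the cyclic AMP response element (TGACGTCA) matched no window of the 6 genes, and the NF-κB consensus matched only the window of a second start of CASP2. These shares were 2.32%, 6.57%, 1.65% and 9.96% of all promoters. A match or its absence concerns these letters in these windows only.

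The libraries summed to between 54070030 and 77220882 counts, so that 3 counts, the lowest number taken as detected, stood for 0.0389 to 0.0557 CPM, the counts scaled to library size. These floors cover counting error only, since copies of a molecule made by PCR cannot be told apart. Of 15 markers of muscle and RMS, 14 passed the filter, with summed levels of 2970 to 4050 CPM in untreated and 2440 to 3740 CPM in BV6 samples. Of 10 leukocyte markers, 8 passed, with summed levels of 12.7 to 24.2 CPM in untreated and 14.6 to 25.4 CPM in BV6 samples. Most of that sum was CSF1R (8.30 to 18.1 CPM) and CD68 (2.07 to 5.27 CPM), and every other leukocyte marker stayed at or below 0.801 CPM. CD68 was higher with BV6 (2.96 ± 0.918 against 4.73 ± 0.486 CPM, mean ± SD, adjusted p = 0.459, edgeR). The sums of 4 epithelial markers stayed at 0.260 to 0.623 CPM over the 7 samples. Those of 3 endothelial markers lay at 48.9 to 69.3 CPM in untreated and 26.4 to 58.5 CPM in BV6 samples. Nearly all of the endothelial sum was PECAM1 (48.35 to 68.2 CPM in untreated, 24.98 to 56.63 CPM in BV6 samples). The log2 fold change of PECAM1 was -0.559 (adjusted p = 0.586, edgeR). CDH5 did not pass the filter, and VWF was higher with BV6 (means of 0.817 and 1.48 CPM, adjusted p = 0.415, edgeR). No listed marker was at or below 3 counts in every sample. The slope of a library's log2 CPM on the GC content of genes ranged from -0.33 in BV6 replicate 3 to 0.24 in untreated replicate 1 per 10 percentage points, against -0.04 to 0.08 in the other 5. CASP9 has a GC content of 52.8% in its longest transcript, and the other 6 genes lie between 38.3% and 43.7%.

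Per length, cytochrome c mRNA stood far above the rest. The level of CYCS was 29.0 to 39.2 CPM per kilobase of exon over the 7 samples, and its untreated mean exceeded that of 93.3% of the 14088 protein-coding genes tested. APAF1 followed with 5.08 to 6.39 CPM per kilobase, above 59.3% of those genes. CASP9 (3.21 to 4.51 CPM per kilobase) and CASP6 (3.24 to 4.73 CPM per kilobase) came next, with ranges that overlapped nearly in full. The range of CASP4, 2.03 to 3.43 CPM per kilobase, overlapped that of CASP6 and of CASP9. CASP2 lay lower at 0.688 to 1.42 CPM per kilobase, and CASP1 was the lowest at 0.131 to 0.333 CPM per kilobase, above only 13.4% of tested coding genes in untreated cells. The order of the genes stayed as given when the longest transcript replaced the union of exons.

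**Figure D1:**
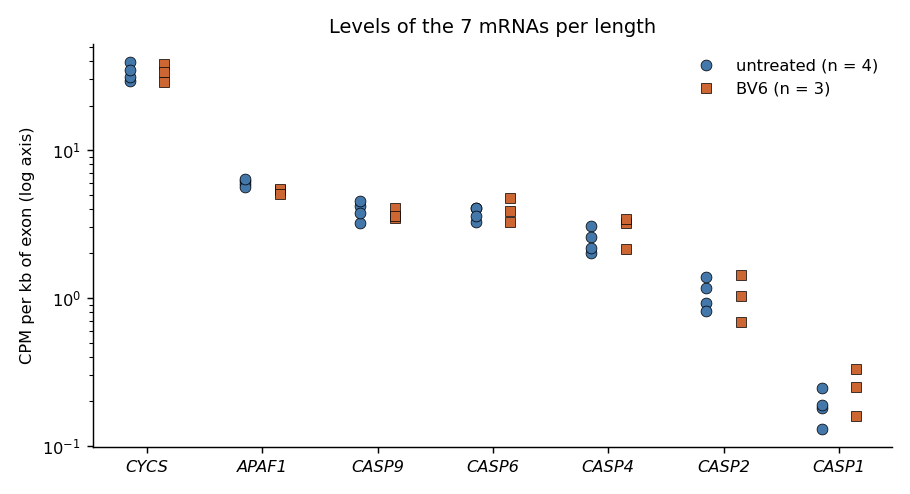
Level of each gene in CPM per kilobase of exon (log axis), with circles for 4 untreated and squares for 3 BV6 samples. CYCS lies above all other genes in every sample at 29.0 CPM per kilobase or more, CASP9, CASP6 and CASP4 overlap, and CASP1 stays at or below 0.333 CPM per kilobase.

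The partners of the apoptosome were present at unequal mRNA levels. The per-length level of CYCS was 4.68 to 7.08 times that of APAF1 over the 7 samples, with a mean ratio of 5.60 ± 0.822 (SD, n = 4) without BV6 and 6.30 ± 0.705 (SD, n = 3) with it. The ratio of APAF1 to CASP9 was 1.24 to 1.83, with means of 1.57 ± 0.257 and 1.43 ± 0.105 in the same groups. In both ratios the groups lay within the spread of the samples.

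None of the 7 mRNAs was called changed by BV6. In edgeR's quasi-likelihood fit, after Benjamini-Hochberg adjustment, 0 of 7 had an adjusted p below 0.05, against 0.45% of all genes tested (0.394% higher and 0.0562% lower with BV6). An unadjusted p below 0.05 was found for 0 of 7, against 8.39% of all genes. With the replicate block 0 of 7 were called, against 0.943% of all genes, and 0 of 7 had an unadjusted p below 0.05, against 11.4%. The DESeq2 Wald test and limma-voom each also gave 0 of 7 on both counts. Estimates were higher with BV6 for 3 genes and lower for 4, and their median log2 fold change was -0.01, as was that of all tested genes (-0.01). A missed threshold does not show that levels were equal. The 95% interval stayed within a doubling or halving for 6 of the 7 genes and reached a doubling for CASP1 alone. Bulk RNA cannot tell fewer cells with a transcript from less of it per cell.

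**Figure D2:**
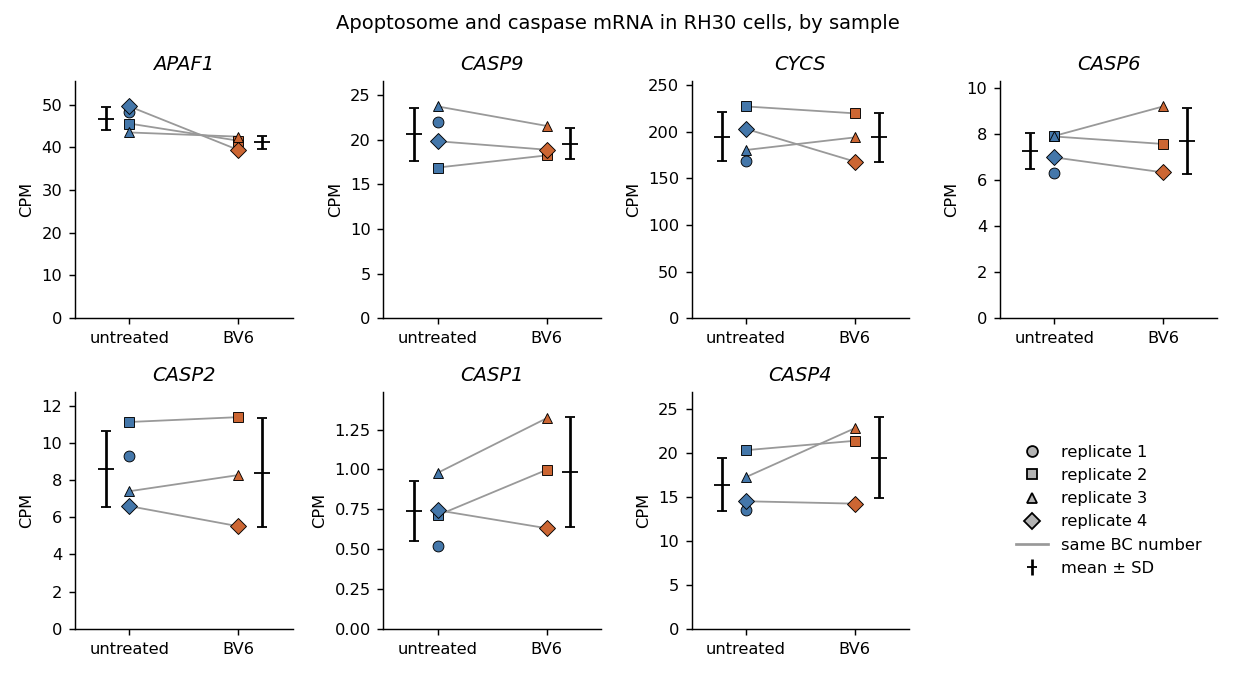
CPM of each gene in every sample, on axes that start at 0, with untreated samples in blue, BV6 samples in orange, a marker shape per replicate number, grey lines joining samples of the same BC number and black bars for mean ± SD (n = 4 and 3). Only for APAF1 do all BV6 samples lie below all untreated ones.

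APAF1 encodes the scaffold of the apoptosome (chromosome 12, 98645290 to 98735433, plus strand, GRCh38). Its level was 48.2, 45.6, 43.5 and 49.6 CPM in untreated replicates 1 to 4 and 41.6, 42.5 and 39.4 CPM in BV6 replicates 2 to 4. The BV6 samples were all lower than the untreated samples, so that 1 of the 7 genes had groups without overlap, against 8.83% of all genes tested (3.89% lower and 4.94% higher with BV6). The means were 46.7 ± 2.72 CPM (SD, n = 4) and 41.2 ± 1.60 CPM (SD, n = 3). The log2 fold change was -0.18 (SE 0.102, 95% interval -0.41 to 0.05, adjusted p = 0.692, edgeR quasi-likelihood with Benjamini-Hochberg adjustment), which corresponds to a ratio between 0.751 and 1.03. Within pairs the log2 difference was -0.13, -0.03 and -0.33 for replicates 2, 3 and 4, negative in each, as for 17.8% of tested genes. After a correction for GC content, tried once the data had been seen, the estimate was -0.25 (unadjusted p = 0.0327, adjusted p = 0.407, edgeR), and over 17 settings its adjusted p ranged from 0.146 to 1. Of the exonic bases of APAF1, 750 (9.67%) are shared with ANKS1B on the other strand, which had 228 to 333 counts, against 2121 to 3715 for APAF1.

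CASP9, which encodes the initiator caspase of the apoptosome (chromosome 1, 15490832 to 15526534, minus strand), did not follow that pattern. The untreated samples had 22.0, 16.9, 23.7 and 19.8 CPM and the BV6 samples 18.3, 21.6 and 18.9 CPM. The groups overlapped, since every BV6 value lay inside the untreated range, where the highest sample was 1.41 times the lowest. The means of 20.6 ± 2.95 CPM (SD, n = 4) and 19.6 ± 1.75 CPM (SD, n = 3) gave a log2 fold change of -0.08 (SE 0.147, 95% interval -0.41 to 0.25, adjusted p = 0.914, edgeR quasi-likelihood, Benjamini-Hochberg). The interval covers ratios of 0.755 to 1.19.

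CYCS, the gene of somatic cytochrome c (chromosome 7, 25118656 to 25125260, minus strand), had nearly equal means. Its untreated levels were 168, 227, 180 and 203 CPM and its BV6 levels 220, 194 and 168 CPM. The spread within either group was larger than the difference between them, with means of 194.7 ± 25.9 CPM (SD, n = 4) and 193.9 ± 25.9 CPM (SD, n = 3). The log2 fold change was -0.01 (SE 0.135, 95% interval -0.31 to 0.30, adjusted p = 0.994, edgeR quasi-likelihood, Benjamini-Hochberg), a ratio between 0.807 and 1.23. Replicate 2 held the highest CYCS level in both groups. The counts table lists 40 pseudogenes named after CYCS, of which 9 exceeded 3 counts in some sample. Their summed counts of 301 to 498 made up 2.98% to 3.70% of all CYCS and pseudogene counts. The most abundant copy, CYCSP55, is 95.8% identical to CYCS over 313 bases and had 232 to 347 counts.

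CASP6 encodes an executioner caspase that cleaves nuclear lamins (chromosome 4, 109688622 to 109703583, minus strand). It was measured at 6.30, 7.89, 7.92 and 6.99 CPM in untreated and at 7.57, 9.20 and 6.33 CPM in BV6 samples. BV6 replicate 3 was the highest of all samples, and the other 2 BV6 values lay inside the untreated range. The log2 fold change was 0.08 (SE 0.172, 95% interval -0.30 to 0.47, adjusted p = 0.921, edgeR quasi-likelihood, Benjamini-Hochberg). Without BV6 replicate 3 it was -0.06. CASP6 shares 98 exonic bases (5.04% of its own) with MCUB on the other strand, which had 1442 to 2388 counts.

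CASP2 encodes the caspase activated in the PIDDosome, the complex of PIDD1 and CRADD (chromosome 7, 143288215 to 143307696, plus strand). The untreated samples had 9.27, 11.1, 7.40 and 6.60 CPM and the BV6 samples 11.4, 8.27 and 5.52 CPM. The replicates of both groups fell in the same order, with replicate 2 highest and replicate 4 lowest among the pairs. The mean log2 level of the 3 pairs spanned 0.90, whereas the differences within pairs were 0.03, 0.16 and -0.26. The log2 fold change was -0.04 (SE 0.262, 95% interval -0.62 to 0.55, adjusted p = 0.981, edgeR quasi-likelihood, Benjamini-Hochberg). In the fit with the replicate block its interval narrowed to -0.35 to 0.31, and the adjusted p was 0.976 in that edgeR fit.

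CASP1, the caspase of the canonical inflammasomes (chromosome 11, 105025397 to 105035250, minus strand), had few counts, 40, 40, 59 and 46 in untreated and 56, 81 and 34 in BV6 samples. These were 0.519, 0.713, 0.979 and 0.744 CPM against 0.997, 1.32 and 0.632 CPM. BV6 replicates 2 and 3 lay above every untreated sample, and BV6 replicate 4 lay below 3 of the 4. The log2 fold change was 0.42 (SE 0.320, 95% interval -0.30 to 1.14, adjusted p = 0.766, edgeR quasi-likelihood, Benjamini-Hochberg), a ratio between 0.813 and 2.20. The estimate was 0.24 with the replicate block (95% interval -0.39 to 0.87, adjusted p = 0.790, edgeR). Its standard error was the largest of the 7 genes. CARD16, an adjacent gene that encodes a CARD-only protein able to bind caspase-1, is 91.7% identical to CASP1 over 361 bases, and the split of reads between them is uncertain.

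CASP4 encodes the human caspase that senses cytosolic lipopolysaccharide (chromosome 11, 104942866 to 104969366, minus strand). It was expressed at 13.5, 20.3, 17.3 and 14.5 CPM in untreated and at 21.4, 22.8 and 14.2 CPM in BV6 samples. As for CASP1, BV6 replicates 2 and 3 were higher than every untreated sample while replicate 4 was not. The log2 fold change was 0.25 (SE 0.201, 95% interval -0.20 to 0.70, adjusted p = 0.775, edgeR quasi-likelihood, Benjamini-Hochberg), a ratio between 0.870 and 1.62. Without BV6 replicate 4 it was 0.43 (unadjusted p = 0.0451, adjusted p = 0.461, edgeR). Per length, CASP4 exceeded CASP1 by 10.3 to 17.0 times in each sample. The leukocyte markers summed to similar ranges in both groups (given above), but most of each sum was CSF1R and CD68, and CD68 was higher with BV6. The part of leukocyte RNA in the levels of CASP1 and CASP4 was not tested.

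**Figure D3:**
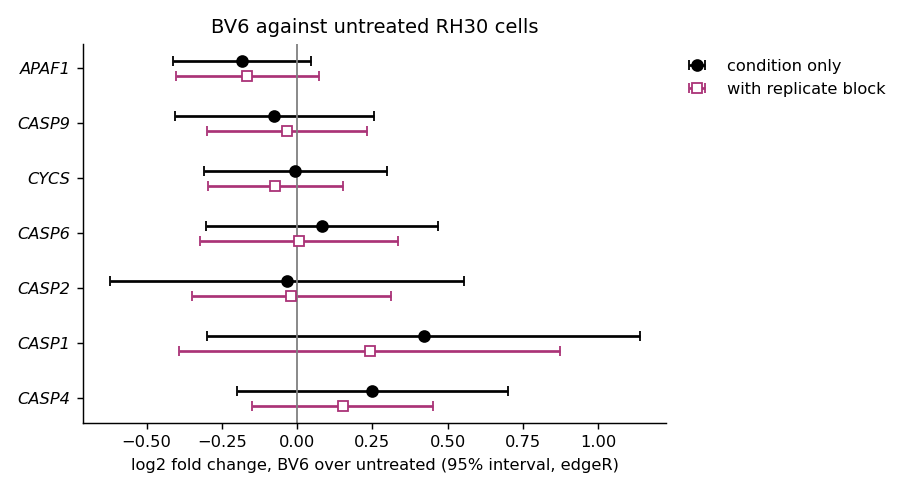
Log2 fold change of BV6 over untreated cells with 95% intervals from edgeR, for the fit on condition alone (filled circles) and with the replicate number as a block (open squares). Every interval includes 0, and that of CASP1 is the widest, from -0.30 to 1.14 without the block.

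The other caspases were measured in the same samples. As a background for this list and those below, 8.39% of all tested genes had an unadjusted p below 0.05 (954 higher and 985 lower with BV6, edgeR). Of 8 genes, the remaining caspases and CFLAR, an inhibitor of caspase-8, 5 passed the filter and 0 were called by edgeR. CFLAR alone had an unadjusted p below 0.05, and the median log2 fold change was 0.13. It was higher with BV6 (9.11 ± 1.17 against 13.3 ± 1.06 CPM, mean ± SD, log2 fold change 0.545, adjusted p = 0.237, edgeR). Its adjusted p was 0.0489 by DESeq2, 0.209 by edgeR with the replicate block and 0.0451 by edgeR with GC correction and block. CASP5, CASP12 and CASP14 did not pass the filter, with at most 10 counts in any sample.

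Among 22 genes for cytochrome c release and the control of the apoptosome, all tested, 2 were up-regulated and 0 down-regulated by edgeR, 2 were higher and 1 lower at an unadjusted p below 0.05, and their median log2 fold change was 0.00. The 2 called were IAP genes. BIRC3, which encodes cIAP2, had 1.64, 4.74, 1.26 and 2.12 CPM in untreated and 102, 57.1 and 52.3 CPM in BV6 samples. It rose by a log2 fold change of 4.86 (SE 0.451, adjusted p = 0.00341, edgeR quasi-likelihood, Benjamini-Hochberg). BIRC2, which encodes cIAP1, had 52.0, 76.7, 68.4 and 67.5 CPM against 283, 152 and 142 CPM, and rose by a log2 fold change of 1.54 (SE 0.237, adjusted p = 0.0269, edgeR, Benjamini-Hochberg). The BIRC2 call was lost when any 1 of the 4 untreated samples was left out. XIAP, the inhibitor of caspase-9 itself, had a log2 fold change of 0.23 (37.0 ± 2.61 against 43.3 ± 4.85 CPM, adjusted p = 0.666, edgeR, n = 4 and 3). For DIABLO, the gene of Smac, the 3 BV6 samples (44.2 to 47.8 CPM) lay above the 4 untreated samples (38.0 to 41.8 CPM), without overlap. Of all tested genes, 4.94% had such a gap with BV6 higher. The log2 fold change of DIABLO, 0.19, missed the threshold (adjusted p = 0.652, edgeR, Benjamini-Hochberg). The gene that was lower at an unadjusted p below 0.05 was BCL2L1, named here after its values were seen, which encodes BCL-XL, an inhibitor of cytochrome c release. It had 139 ± 10.3 CPM (SD, n = 4) without BV6 and 96.9 ± 16.0 CPM (SD, n = 3) with it. The groups did not overlap, as for 3.89% of all tested genes in this direction. BCL2L1 had a log2 fold change of -0.52 (adjusted p = 0.190, edgeR, Benjamini-Hochberg). Its adjusted p was 0.0364 by DESeq2, 0.0368 by edgeR on the 3 complete pairs and 0.057 by edgeR with the replicate block on all samples. By edgeR with GC correction and block it was 0.00527 (log2 fold change -0.44).

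Cytochrome c also carries electrons between respiratory complexes III and IV. Of 15 genes of that list, a selection of subunits of both complexes and HCCS, which attaches heme to cytochrome c, 0 were called by edgeR. At an unadjusted p below 0.05, 1 was lower (COX5B), and the median log2 fold change was -0.05. Estimates were higher for 3 and lower for 12, against 11020 higher and 12104 lower among all tested genes. HCCS had a log2 fold change of -0.03 (adjusted p = 0.968, edgeR, Benjamini-Hochberg), next to that of -0.01 for CYCS.

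The partners of caspase-2 differed in their spread. PIDD1, the core of the PIDDosome, ranged from 15.8 to 43.4 CPM in untreated and from 6.07 to 25.5 CPM in BV6 samples (log2 fold change -0.59, adjusted p = 0.774, edgeR). Its GC content is 66.0%, and its highest and lowest levels were in untreated replicate 1 and BV6 replicate 3, the libraries with the steepest GC slopes. The part of GC content in its level was not tested. CRADD, the adaptor between PIDD1 and caspase-2, had 3.40 to 4.12 CPM in untreated and 4.16 to 4.85 CPM in BV6 samples (log2 fold change 0.28, adjusted p = 0.696, edgeR). Its groups did not overlap, as for 4.94% of all tested genes with BV6 higher.

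The genes around caspase-1 and caspase-4 covered a wide range of levels. Of 22 genes for inflammasomes and pyroptosis, 14 passed the filter and 0 were called by edgeR. At an unadjusted p below 0.05, 2 were higher and 1 lower (8.39% of all genes in either direction), and the median log2 fold change was -0.03. The lower gene, named here after its values were seen, was NINJ1 (log2 fold change -0.771, adjusted p = 0.591, edgeR). Its adjusted p was 0.0357 by edgeR with GC correction and block. With the replicate block, 1 was up-regulated, GBP5, also named after its values were seen. Its log2 fold change was 3.44 (adjusted p = 0.0228, edgeR), and 2.88 without the block (adjusted p = 0.0522, edgeR). DESeq2 and limma-voom called GBP5 too (adjusted p = 0.000174 and 0.0491). GBP5 encodes an interferon-inducible GTPase and had 2 to 12 counts in untreated and 26 to 52 in BV6 samples. GBP1, another GTPase of that family, was the most abundant gene of the list, with 78.8 ± 11.1 CPM (SD, n = 4) without BV6 and 99.4 ± 14.5 CPM (SD, n = 3) with it (log2 fold change 0.34, adjusted p = 0.582, edgeR), and it too was named after its values were seen. The adaptor PYCARD had 6 to 24 counts a sample (log2 fold change -0.32, adjusted p = 0.881, edgeR). The substrates IL18 (2 to 6 counts) and IL1B (0 to 4 counts) did not pass the filter. GSDMD, the pore-forming substrate, was detected at 5.78 ± 1.52 CPM (SD, n = 4) without BV6 and 5.32 ± 2.93 CPM (SD, n = 3) with it (log2 fold change -0.12, adjusted p = 0.948, edgeR). CARD16 had 0.909, 0.891, 1.86 and 0.873 CPM in untreated and 1.44, 2.06 and 1.23 CPM in BV6 samples (log2 fold change 0.48, adjusted p = 0.744, edgeR). Untreated replicate 3 was the highest untreated sample for CARD16, as it was for CASP1.

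Of 13 genes whose proteins are caspase substrates, 12 passed the filter and 0 were called by edgeR, with 1 higher and 2 lower at an unadjusted p below 0.05 and a median log2 fold change of -0.13. With the replicate block, 1 was up-regulated, the intermediate filament gene VIM, also named after its values were seen. It had a log2 fold change of 0.55 in both fits (adjusted p = 0.0229 with the block and 0.0561 without it, edgeR). DESeq2 and limma-voom also called VIM (adjusted p = 0.00177 and 0.0388). With GC correction and block, edgeR called LMNA (adjusted p = 0.0105) and LMNB2 (0.0368) lower and VIM higher (0.000471). Over all lists, 2 of 70 tested genes were called, against 0.45% of all genes.

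**Figure D4:**
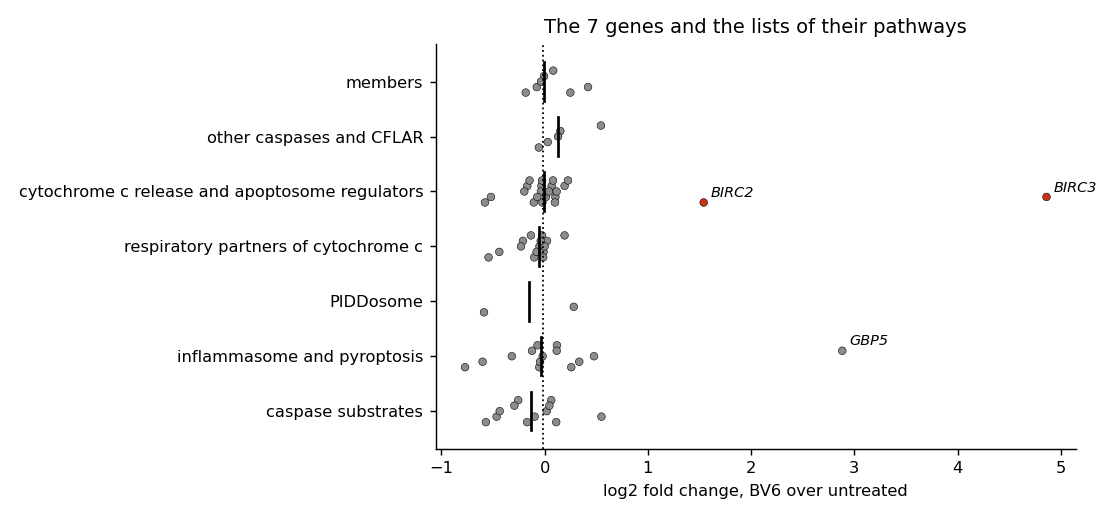
Log2 fold change of BV6 over untreated cells for the 7 genes (top row) and for the tested genes of 6 lists, with a vertical bar for each median, a dotted line for the median of all tested genes (-0.01) and red points for an adjusted p below 0.05. The 7 genes lie between -0.18 and 0.42, and the 2 red points are BIRC2 (1.54) and BIRC3 (4.86).

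Likeness to each of the 7 genes was described by Pearson's r of log2 CPM over the 7 samples against the other 23123 tested genes, as a description of 7 points that share libraries and conditions. The closest were AC012640.2 (r = 0.958) and AC020629.1 (0.957) for APAF1. They were RIMKLBP1 (0.988) and AC034236.2 (0.986) for CASP9, and SMYD2 (0.989) and HNRNPR (0.984) for CYCS. For CASP6 they were NRIP1 (0.998) and APC (0.987), and for CASP2 MRPL21 (0.994) and UNG (0.989). CASP1 was closest to ELF1 (0.991) and ASAH2 (0.990), and CASP4 to TXNDC9 (0.994) and PHF14 (0.989). After the group means were removed, 2 of these 14 genes remained, NRIP1 and MRPL21. Among the 7 genes themselves, the highest r was 0.90 between CASP6 and CASP1, followed by 0.89 between CASP6 and CASP4 and 0.81 between CASP1 and CASP4. In each of these 3 genes BV6 replicate 3, the library with the steepest GC slope, was the highest sample, and its part in these correlations was not tested. The lowest r was -0.65, between CASP9 and CYCS.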

How the data were processed

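The authors deposited raw counts per gene of 7 RH30 samples, without normalization, for 57189 genes listed by symbol. Per the labels and the methods, RNA was poly(A)-selected, made into stranded libraries and sequenced in paired-end mode, and STAR (version 2.6.1d) aligned the reads to GRCh38, which were counted on the union of each Ensembl gene's isoforms. Strand use, multi-mapping reads and the counting of mates are not given in the sources used here. The totals exceed the reads per library that the study states, so both mates may have been counted.

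Groups were taken from the treatment label. Counts were analysed with edgeR 4.0.16 under R 4.3.3 (TMM factors, filterByExpr at a minimum of 10 counts, glmQLFit and glmQLFTest, condition only) with Benjamini-Hochberg adjustment over 23124 genes, calls were made at an adjusted p below 0.05, and CPM refers to the TMM-normalized library size. The F statistic of each fold change gave its SE and 95% interval. Scripts were tested on simulated data. The BC numbers in the titles, whose meaning is not stated, were taken to pair the samples. Deviations from the group means correlated at 0.197 to 0.515 across genes within the 3 pairs (mean 0.345). Between samples of different numbers the mean was -0.174, but BV6 replicate 3 and untreated replicate 4 reached 0.132. Deviations within a group cancel out, so positive values within pairs force negative ones elsewhere, and that mean is no separate support. The methods name no block, so the fit with it was an alternative.

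Coordinates, exon lengths, GC content and overlaps are from GENCODE 44 (GRCh38, bedtools 2.31.1), matched by symbol for 36335 genes, promoters from RefSeq, and similarity between transcripts from blastn 2.17.0. The 7 genes, the lists and the named genes (the 7, listed genes called, 12 partners fixed by name, of which 2 are not reported here, the 2 genes most like each, and overlapping genes) were chosen with earlier results of these data known. Alternatives were DESeq2 1.42.0, limma-voom (limma 3.58.1), RLE factors, no filter, 10 counts in every sample, the replicate block, the 3 complete pairs and leaving out each sample. A loess correction for GC content (span 0.5), with and without the block, and leaving out untreated replicate 1 and BV6 replicate 3 were added after seeing the data.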

Additional observations from a re-analysis of the deposited data

Results flagged for a closer look

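One of 27 gene values checked stood apart in the 4 untreated samples. The CARD16 level of untreated replicate 3 (1.86 CPM) was separated from the other 3 (0.873 to 0.909 CPM) by a gap of 0.964 of the group's range, above Dixon's 95% critical value for 4 samples. Chance alone gives such a gap in about 1 of 20 groups. CASP1, which shares near-identical bases with CARD16, was also highest in that untreated sample, at 0.979 CPM against 0.519 to 0.744 CPM, without passing the same value.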

How the results depend on the processing

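No setting called any of the 7 genes, and APAF1 (-0.25 to -0.15), CASP1 (0.01 to 0.66) and CASP4 (0.04 to 0.43) kept the direction of their log2 fold change in all 17. Little of the difference remained for CASP1 (0.006) and CASP4 (0.038) without the 2 libraries of steepest GC slope. Without BV6 replicate 3 alone their estimates were 0.151 and 0.124. For small estimates the sign depended on the samples. CASP6 was -0.019 with the GC correction and replicate block and -0.13 without the 2 libraries of steepest GC slope, where CASP2 was 0.015. Leaving out 1 sample gave -0.31 to 0.19 for CASP2 (0.01, 0.11 and 0.19 without untreated replicates 1 and 2 and BV6 replicate 4), -0.10 to 0.09 for CYCS (0.07, 0.015 and 0.087 without untreated replicates 2 and 4 and BV6 replicate 4), -0.06 to 0.21 for CASP6 (-0.06 without BV6 replicate 3), -0.16 to 0.00 for CASP9 (0.00 without untreated replicate 3) and -0.02 to 0.19 for the median of the 7 (0.19 without BV6 replicate 4). Of the 7 genes, 0 to 1 then had an unadjusted p below 0.05 (CASP4, without BV6 replicate 4), and 1 did, APAF1, under the GC correction with and without the block.

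Over all genes, edgeR called 104. DESeq2 called 408, no filter 242, the replicate block 218, the 3 complete pairs 341, the GC correction 205, that correction with the block 1147, the fit without both steep libraries 27, and leaving out 1 sample 38 to 89. The genes tested also differed, with 23124 in the main fit, 43421 for DESeq2 and no filter and 17465 with the GC correction. Of the listed genes 2 of 70 tested were called. Other settings called 6 (DESeq2, 82 tested), 4 (no filter, 82 tested), 4 by limma-voom, 4 with the replicate block, 5 on the 3 complete pairs, 11 with GC correction and block, 1 without both steep libraries and 1 to 2 with 1 sample left out (70 or 71 tested; 1 when it was an untreated sample). The likeness lists kept 2 of 14 genes once group means were removed. The block changed no call among the 7 genes. Beyond the smaller number of samples where some were left out, the cause was not tested. Counts were low for CASP1 (34 to 81 a sample) and lower for PYCARD (6 to 24), and IL18 and IL1B had too few to be tested.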
